A study of Mus musculus with 9 samples.

Results

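The respiratory chain genes described here are the 94 gene IDs of the deposited table that carry the standard mouse symbols of subunits of complexes I to V, 12 encoded by the mitochondrial genome and 82 by the nucleus, among 15504 IDs in all. They were found by symbol alone: the mitochondrial prefix mt-, the Nduf subunits of complex I (NADH dehydrogenase), Sdha to Sdhd of complex II (succinate dehydrogenase), the Uqcr genes and Cyc1 of complex III (cytochrome bc1), the Cox4 to Cox8 families of complex IV (cytochrome c oxidase), and the Atp5 genes of complex V (ATP synthase). Pseudogene IDs ending in -ps (2 of them) were left out, and Atp5o, which had more than 1 row, was represented by its higher row. Ndufa4, its paralogue Ndufa4l2 and the supercomplex factor Cox7a2l were counted with complex IV. The table holds no row for mt-Nd3, which was not analysed here.

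The study asked what loss of Kif2a, a microtubule-depolymerising kinesin, changes in mouse embryonic stem (ES) cells. Poly-A RNA was sequenced from 9 libraries of untreated ES cells whose labels give the 129 background: 3 of wild-type cells (WT) and 3 each of KO1 and KO2, a pair of separately edited Kif2a knockout lines. Both lines carry the Kif2a knockout, and the labels name no other allele or agent in any group. Whether a line descends from 1 clone, or whether the 3 libraries of a group come from separate cultures, is not given in the sources used here, so the p-values measure the spread between these libraries, which may be technical.

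The respiratory chain passes electrons from NADH and succinate through coenzyme Q, complex III and cytochrome c to oxygen at complex IV, pumping protons that drive ATP synthesis at complex V. Complex II is made of nuclear subunits only, whereas each of the others is assembled from products of both genomes. The mitochondrial genes are transcribed as long precursors from both strands of a circular genome and cut at the transfer RNAs between them, while the nuclear genes are transcribed one by one, many of them from promoters that bind NRF1, the ETS factor GABP or YY1. ES cells in the naive state are known to respire actively, alongside a high rate of glycolysis.

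The values are read counts per gene that the authors had scaled between libraries. Whole reads could be recovered from them for 100% of the values, within a tolerance of 0.05 reads, and amounted to 14960295 to 18814858 per library. Kif2a averaged 114 ± 6.49 over the WT libraries (SD, n = 3), with 0.999 ± 0.140 for KO1 and 1.17 ± 0.528 for KO2, an exact two-sided permutation p of 0.0238 over 84 assignments, the smallest this design allows for 3 libraries against 6. All 9 ES cell markers examined were in the table, summing to 11159 to 11607 in WT, 11596 to 11781 in KO1 and 12001 to 12439 in KO2. They did not move together: in KO2 Dppa5a (0.26, log2) and Tdgf1 (0.39) were higher and Zfp42 (−0.17) lower by the limma test described with the results.

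Several mitochondrial genes have near-identical copies in the nucleus, which limits what their values mean, so these sequences are given first. Mouse chromosome 1 carries an insertion of mitochondrial DNA, annotated in GRCm38 as a run of unprocessed pseudogenes from 24611535 to 24616197. Taken alone, reads from either place cannot be told apart where the letters are the same. The middle of mt-Co2, which encodes the copper-binding subunit of complex IV, and the same stretch of its copy Gm28661 follow, each read from its annotated transcript (GENCODE M21) in the sense direction, mt-Co2 at chrM:7323-7382 on the plus strand and Gm28661 at chr1:24615196-24615255 on the minus strand; 0 of the 60 bases differ.
mt-Co2: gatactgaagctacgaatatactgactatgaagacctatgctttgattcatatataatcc
Gm28661: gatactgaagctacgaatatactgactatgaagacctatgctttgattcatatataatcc

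Each member's first annotated transcript was compared with those of all other annotated genes in windows of 50 bases, the read length. For mt-Co2 100% of the windows occurred elsewhere, for mt-Co3 99.9%, for mt-Atp6 99.5% and for mt-Nd4l 98.8%. These were also among the mitochondrial genes with low values. Per kilobase of transcript, the WT mean was 23.3 for mt-Co2, 5.46 for mt-Co3, 4.62 for mt-Atp6 and 3.01 for mt-Nd4l. It was 5862 for mt-Co1, 2873 for mt-Nd1 and 1997 for mt-Cytb. Windows of mt-Nd1, mt-Cytb, mt-Nd6 and mt-Atp8 were found in no other annotated gene, and mt-Nd6 lay at 61.8 and mt-Atp8 at 3.17. mt-Nd4 and mt-Co1 lay between, with 62.2% and 51.1% of their windows shared, and mt-Nd2 and mt-Nd5 had 8.19% and 7.61%.

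The pseudogenes Gm28661, Gm28437, Gm10925 and Gm10222, the copies of mt-Co2, mt-Co3, mt-Atp6 and mt-Nd4l, have no row in the table. How the authors' counting treated reads with more than 1 possible origin is not given in the sources used here, and the part of these copies in the low values was not tested. mt-Atp8 was low as well, at 3.17 per kilobase, with 0% of its windows in another annotated gene; it lies between mt-Co2 and mt-Atp6, and the stretch of chromosome 1 between the copies of those genes, from 24614651 to 24614885, was not analysed here. With 3 to 10 recovered reads of mt-Atp8, 3 to 12 of mt-Nd4l, 19 to 43 of mt-Atp6 and 28 to 47 of mt-Co3 per library, these genes fell under the minimum mean value of 10 and were not tested, as did the nuclear isoform genes Cox4i2 and Cox7b2. That left 88 members tested, 8 mitochondrially encoded and 80 nuclear. The mitochondrial subunits of complex V, mt-Atp6 and mt-Atp8, were thus not tested for a change.

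**Figure D1:**
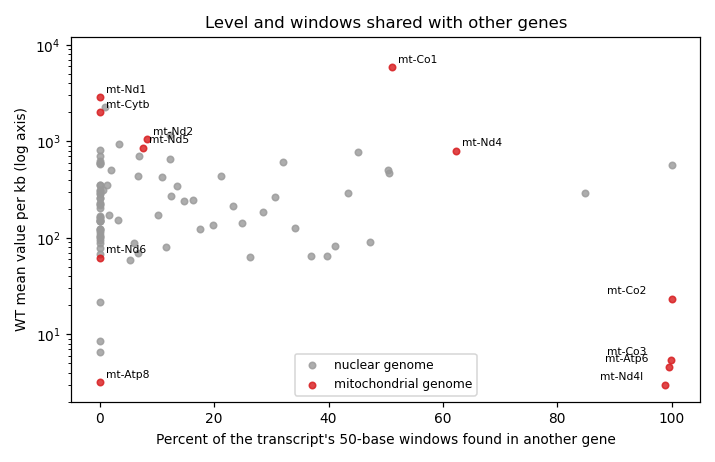
Percent of each member's 50-base transcript windows found in another annotated gene (horizontal axis) against its WT mean value per kilobase (vertical axis, log scale), for mitochondrially encoded (red, named) and nuclear (grey) members. mt-Co2, mt-Co3, mt-Atp6 and mt-Nd4l sit at 98.8% to 100% and between 3.01 and 23.3 per kilobase. Of the mitochondrially encoded members with no shared window, mt-Nd1 and mt-Cytb sit at 2873 and 1997, and mt-Nd6 and mt-Atp8 at 61.8 and 3.17.

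In KO2, 3 of the 8 mitochondrially encoded genes tested fell, beside 7.51% of all rows called lower. They were mt-Cytb, down by 19.1%, mt-Nd1 by 20.4% and the much less abundant mt-Nd6 by 24.0%. mt-Co1, the most abundant of the 8, was not called. In KO1 none of the 8 was called, beside 1.06% of all rows called in either direction. Over all members 11 of 88 were called in KO2, 12.5%, beside 18.5% of all 10238 rows tested, so the chain as a whole held no more calls than the background. Called means a Benjamini-Hochberg adjusted p under 0.05 over all rows in limma on log2(value + 1), and all log2 changes below are on that scale.

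mt-Cytb encodes cytochrome b, a catalytic subunit of complex III and its sole subunit not encoded in the nucleus (chrM:14145-15288, plus strand). The WT values were 2234, 2383 and 2239, those of KO1 2211, 2184 and 2097, and those of KO2 1725, 1769 and 2070.1. Every KO2 library lay below every WT and KO1 library, and the third KO2 library lay closest to them. The change in KO2 was −0.31 ± 0.05 (log2, SE; limma adjusted p = 3.6e-05), and it was called in all 21 alternative settings. In KO1 it was −0.08 ± 0.05 (adjusted p = 0.53), with all 3 libraries below WT.

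mt-Nd1 encodes a membrane arm subunit of complex I next to the site where coenzyme Q is reduced (chrM:2751-3707, plus strand). Its values were 2749, 2903 and 2597 in WT, 2468, 2624 and 2464 in KO1, and 2059.6, 2058 and 2461 in KO2. KO2 and WT did not overlap, and KO1 lay between and overlapped WT. The KO2 change was −0.33 ± 0.06 (limma adjusted p = 0.0022); leaving out WT replicate 2 gave −0.29 and an adjusted p of 0.060.

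mt-Nd6 is the one member on the opposite strand (chrM:13552-14070, minus strand), where it overlaps the end of mt-Nd5; in human cells its RNA is known to lack a poly-A tail, which the libraries select for. It measured 29.0, 31.8 and 35.4 in WT, 27.3, 30.9 and 25.5 in KO1, and 20.1, 27.8 and 24.9 in KO2. KO2 lay below WT in every library, with KO2 replicate 2 close to the lowest WT value. The change was −0.40 ± 0.11 (limma adjusted p = 0.0084), lost without WT replicate 3 (−0.32, adjusted p = 0.078) or KO2 replicate 1 (−0.27, adjusted p = 0.12). It rested on 170 to 302 recovered reads per library, and since the strand setting of the counting is not given in the sources used here, reads of genes on the other strand cannot be told apart from its own.

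The other complex I genes of the mitochondrial genome had lower means in KO2 but were not called. mt-Nd2 measured 1067, 1217 and 985 in WT, 1035, 1058 and 1023 in KO1, and 825, 810.1 and 1027 in KO2 (−0.30 ± 0.11, limma adjusted p = 0.12). mt-Nd5 measured 1552, 1739.6 and 1409 in WT, 1635, 1571 and 1598 in KO1, and 1247, 1349.9 and 1579.6 in KO2 (−0.17 ± 0.11, limma adjusted p = 0.33). In both genes the first 2 KO2 libraries lay below all WT libraries and the third lay among them. mt-Nd4 had the same arrangement, at 1087, 1154 and 1042 in WT, 1069, 1118 and 1017 in KO1, and 897, 964 and 1139 in KO2 (−0.14 ± 0.08, limma adjusted p = 0.28).

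Neither tested complex IV gene of the mitochondrial genome was called. mt-Co1, the catalytic subunit that binds oxygen, measured 9109, 9256 and 8803 in WT, 9504, 9341 and 8063 in KO1, and 8299, 8321 and 10297 in KO2, KO2 replicate 3 having the highest value of all 9 libraries (−0.02 ± 0.10, limma adjusted p = 0.92). KO2 replicates 1 and 2 lay below all WT libraries here too, and without KO2 replicate 3 the change was −0.12 (adjusted p = 0.18 in limma). mt-Co2, read through the shared sequence shown above, measured 15.0, 21.2 and 11.6 in WT, 14.2, 12.2 and 15.7 in KO1, and 12.5, 15.7 and 13.3 in KO2 (−0.16 ± 0.15, limma adjusted p = 0.51). In both genes the groups overlapped.

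**Figure D2:**
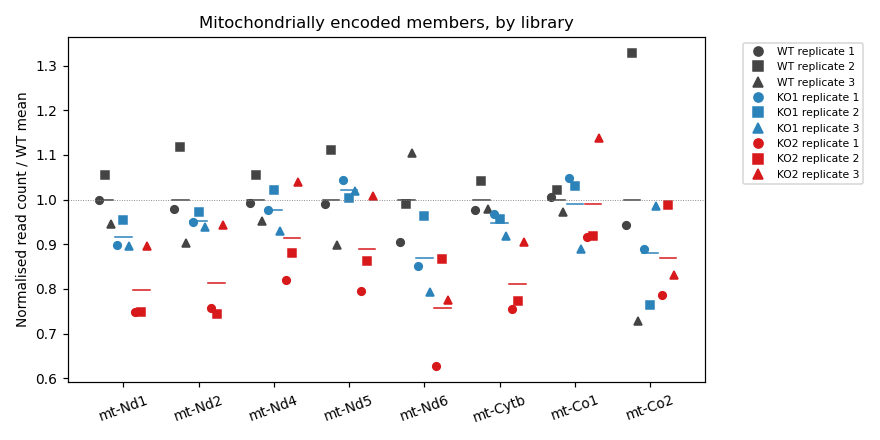
Normalised read count of each tested mitochondrially encoded member in each library, divided by the gene's WT mean (vertical axis, 1 is the WT mean); marker shape gives the replicate and short bars the group means. KO2 replicates 1 and 2 lie below KO2 replicate 3 in the 6 genes above a mean value of 100, and all KO2 libraries of mt-Cytb, mt-Nd1 and mt-Nd6 lie below all WT libraries.

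KO2 replicate 3 stood apart in these genes. In the 6 with a mean value of at least 100 it was the highest KO2 library in 6 of 6, and WT replicate 2 was the highest WT library in 6 of 6 and the highest of all 9 in 5. Together the mitochondrially encoded members held 1.003%, 1.08% and 0.962% of the recovered reads in WT, 1.013%, 1.007% and 0.906% in KO1, and 0.847%, 0.860% and 1.03% in KO2. Both libraries also stood apart by chi-square per gene, a measure not limited to these genes. KO2 replicate 3 gave 4.92 and 5.17 against KO2 replicates 1 and 2, beside 2.76 between those. WT replicate 2 gave 4.05 and 3.86 against WT replicates 1 and 3, beside 2.48. Whether the shifts without either library are particular to mitochondrially encoded genes was not tested. Without KO2 replicate 3, limma called 6 of the 8 lower in KO2 (beside 7.51% of all rows called lower in that fit), adding mt-Nd2 (−0.41), mt-Nd4 (−0.23) and mt-Nd5 (−0.27), and it called mt-Nd1 in KO1 (−0.13, adjusted p = 0.033). Without WT replicate 2 it called mt-Cytb and mt-Nd6 (beside 6.37% of all rows). edgeR on the recovered reads called 6 of the 8 lower with all libraries in, beside 9.0% of all rows, and DESeq2 called 3, beside 8.12%.

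Each gene was also divided by mt-Co1 of the same library, a comparison added after these values had been seen. The ratio of mt-Cytb to mt-Co1 was 0.245, 0.257 and 0.254 in WT, 0.233, 0.234 and 0.260 in KO1, and 0.208, 0.213 and 0.201 in KO2, where KO2 replicate 3 was now the lowest. The KO2 mean was 82.1% of the WT mean, and that of mt-Nd1 was 80.7%. For 4 of the 6 genes compared, mt-Cytb, mt-Nd1, mt-Nd2 and mt-Nd4, every KO2 library had a lower ratio than every WT library. Of all rows treated the same way 4.96% did so, and 13.5% without the division. For none of the 6 was every KO1 ratio below every WT ratio, beside 1.06% of all rows. These shares are no like background: they depend on how mt-Co1 itself varied, and the 6 genes may vary with it. The ratio shows unequal change of the genes within a library, not which of them changed, and no test was run on it.

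By complex, the summed value of the mitochondrially encoded complex I members stood at 84.1% of WT in KO2 (6534 ± 491 in WT and 5497 ± 641 in KO2, SD, n = 3 each), and that of mt-Cytb for complex III was 81.2%. Those of complex IV stood at 99.0%, nearly all of it mt-Co1. Without KO2 replicate 3 the 3 sums were 78.5%, 76.4% and 91.8% of WT for complexes I, III and IV. The nuclear members of the same complexes stood at 103%, 102% and 107%, complex II at 104% and nuclear complex V at 103%. In KO1 the mitochondrially encoded sums were 95.7%, 94.7% and 99.0% of WT for complexes I, III and IV, and the nuclear sums ranged from 101% to 104%. The reads of mitochondrially encoded members per read of nuclear members averaged 0.767 ± 0.051 in WT, 0.734 ± 0.050 in KO1 and 0.675 ± 0.076 in KO2, with KO2 replicate 3 at 0.762, inside the WT range of 0.724 to 0.823. These sums are descriptions and carry no test, and in bulk libraries less RNA per cell cannot be told apart from fewer cells that hold it.

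**Figure D3:**
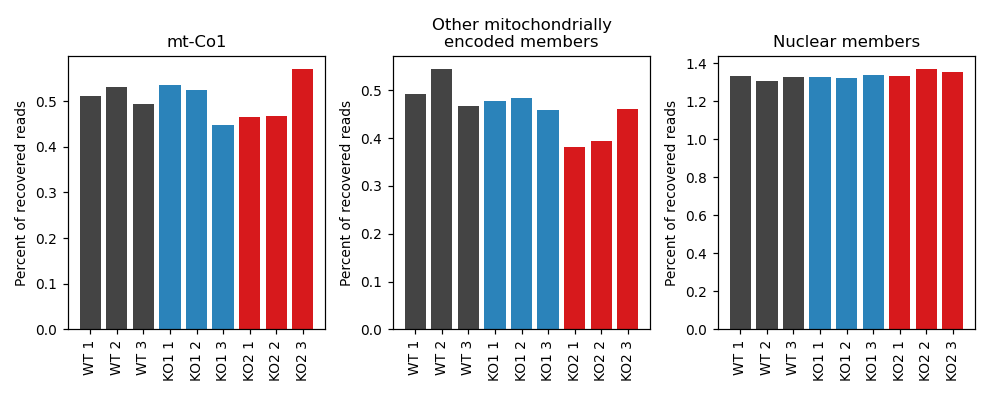
Percent of each library's recovered reads (vertical axes, from 0) that fell on mt-Co1, on the other mitochondrially encoded members and on the nuclear members, for the 3 libraries of each group. The other mitochondrially encoded members held 0.381%, 0.393% and 0.461% in KO2, 0.477%, 0.483% and 0.458% in KO1, and 0.468% to 0.544% in WT. Nuclear members held 1.31% to 1.37% in every library.

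The nuclear subunits moved little. In KO2 77 of the 80 tested stayed within 0.2 of WT on the log2 scale, with a median of 0.06 beside 0.02 over all rows. The share of all rows within 0.2 was not counted, so this is no contrast with other genes. Of the 80, 7 rose, beside 11.0% of all rows called higher, and 1 fell, beside 7.51% called lower. Every KO2 library lay above every WT library for 20 of the 80, beside 18.7% of all rows, and below for 1, beside 13.5%. Under median-ratio scaling 6 rose and 2 fell. The number that rose was 11 without WT replicate 1 and 4 without WT replicate 3.

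**Figure D4:**
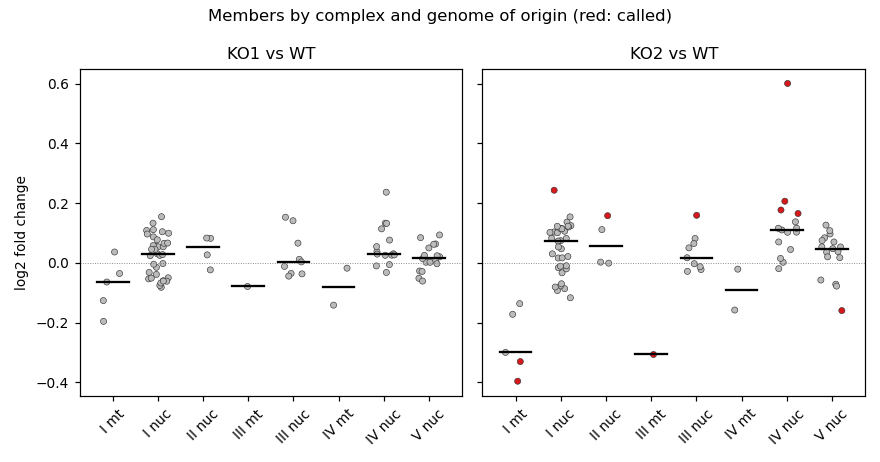
log2 fold change of each tested member against WT (vertical axis) in KO1 (left) and KO2 (right), by complex and by genome, mitochondrial (mt) or nuclear (nuc); red points were called and bars are medians. In KO2 the median of mitochondrially encoded complex I genes was −0.30 and that of nuclear complex I genes 0.07; no point was called in KO1.

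Of the 35 nuclear members of complex I, 1 was called in KO2, beside 18.5% of all rows called in either direction. Ndufb11, an accessory subunit of the membrane arm encoded on the X chromosome (chrX:20615326-20617619, minus strand), measured 114, 108 and 116 in WT, 119, 125 and 120.1 in KO1, and 132, 136 and 133 in KO2. All KO2 libraries lay above the rest, and KO1 lay just above WT. The change was 0.24 ± 0.06 (limma adjusted p = 0.0021), called in all 21 alternative settings.

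In complex II, Sdhb, the iron-sulfur subunit that hands electrons to coenzyme Q (chr4:140961203-140979193, plus strand), measured 185, 182 and 182 in WT, 189, 195 and 197 in KO1, and 201, 207 and 203 in KO2. WT was lowest, KO1 between and KO2 highest, without overlap, and the KO2 change was 0.16 ± 0.05 (limma adjusted p = 0.021), lost without WT replicate 3 or KO2 replicate 2. The flavoprotein gene Sdha, 432 ± 24.4 in WT and 432 ± 7.57 in KO2, and the membrane anchor genes Sdhc and Sdhd were not called.

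In complex III the Rieske iron-sulfur protein gene Uqcrfs1 (chr13:30540308-30545362, minus strand) measured 128, 132 and 130.01 in WT, 147, 144 and 143 in KO1, and 141, 139 and 156 in KO2. Both knockout lines lay above WT in every library and overlapped each other. The estimates were 0.15 ± 0.06 in KO1 (limma adjusted p = 0.21) and 0.16 ± 0.06 in KO2 (limma adjusted p = 0.043), the latter a call lost in 17 of 21 alternative settings. The core protein gene Uqcrc1 had means of 580 ± 4.94 for WT, 566 ± 22.4 for KO1 and 587 ± 15.1 for KO2.

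Complex IV held 4 of the 7 nuclear members that rose in KO2, among 15 tested, beside 11.0% of all rows called higher. The count rests on the grouping used here, since Ndufa4l2 and Cox7a2l, both among the 4, were placed in complex IV by it. The calls of Cox7a2l and Cox8a were lost without WT replicate 2. Ndufa4l2, a paralogue of the complex IV subunit Ndufa4 known as a target of the hypoxia factor HIF1 (chr10:127514967-127517154, plus strand), had the largest change of all 88 members in KO2. It measured 19.3, 21.4 and 19.6 in WT, 26.6, 23.1 and 22.0 in KO1, and 37.6, 26.6 and 29.6 in KO2, with WT lowest and KO2 highest, the lowest KO2 library standing just above the highest KO1 library. The change was 0.60 ± 0.12 (limma adjusted p = 1.3e-04), called in all 20 alternative settings that tested it.

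The other complex IV changes were smaller. Cox5a, a matrix-facing structural subunit, measured 380.5, 399.6 and 403 in WT, 418, 420.2 and 443 in KO1, and 408, 452 and 481 in KO2 (0.18 ± 0.05, limma adjusted p = 0.0044; 0.12 and adjusted p = 0.053 without KO2 replicate 3). An annotated transcript, Gm26631, overlaps its end, and 32.0% of its windows were shared. Cox7a2l, which links complexes III and IV in supercomplexes, measured 157, 133 and 153 in WT, 153, 142 and 157 in KO1, and 167, 170.3 and 174 in KO2 (0.21 ± 0.06, limma adjusted p = 0.0090).

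Cox8a, a small subunit in its widely expressed isoform, was named after its values had been seen. It measured 371, 331 and 324 in WT, 365, 327 and 352 in KO1, and 386, 383 and 380.1 in KO2 (0.17 ± 0.05, limma adjusted p = 0.0096, lost without WT replicate 2 or 3). For Cox7a2l and Cox8a the KO2 libraries lay above all others and close together, whereas WT and KO1 overlapped. Cox4i1, the most counted nuclear gene of complex IV, was at 874 ± 38.7 in WT and 939 ± 4.44 in KO2 (0.10 ± 0.04, limma adjusted p = 0.051).

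Among the isoforms best known from other tissues, Cox6b2 of testis measured 69.1 ± 2.18 in WT and 70.0 ± 6.28 in KO2, and Cox7a1 of muscle and heart 58.1 ± 5.62 and 62.9 ± 2.57, neither called. Cox4i2 of lung had 25 to 68 recovered reads per library and Cox7b2 of testis 23 to 48, too few for the test.

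In complex V, 1 of the 17 nuclear members tested was called in KO2, a decrease, beside 7.51% of all rows called lower. Atp5g1 is 1 of 3 genes that encode the same mature c subunit of the rotor ring (chr11:96068852-96075670, minus strand). It measured 387, 343 and 394 in WT, 375, 356 and 371 in KO1, and 348, 346 and 313 in KO2, and KO2 overlapped WT through WT replicate 2. The change was −0.16 ± 0.05 (limma adjusted p = 0.014), lost without WT replicate 1, WT replicate 3 or KO2 replicate 3. The other two c subunit genes were not called, Atp5g2 at 250.3 ± 9.84 in WT and 259 ± 20.7 in KO2, and Atp5g3 at 427 ± 14.2 and 411 ± 28.3; 100% of the Atp5g2 windows occur in other genes, among them the pseudogene Gm10175. Atp5b, the catalytic beta subunit and the nuclear member with the highest count, had means of 4398 ± 128 for WT, 4418 ± 79.8 for KO1 and 4565 ± 66.9 for KO2.

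**Figure D5:**
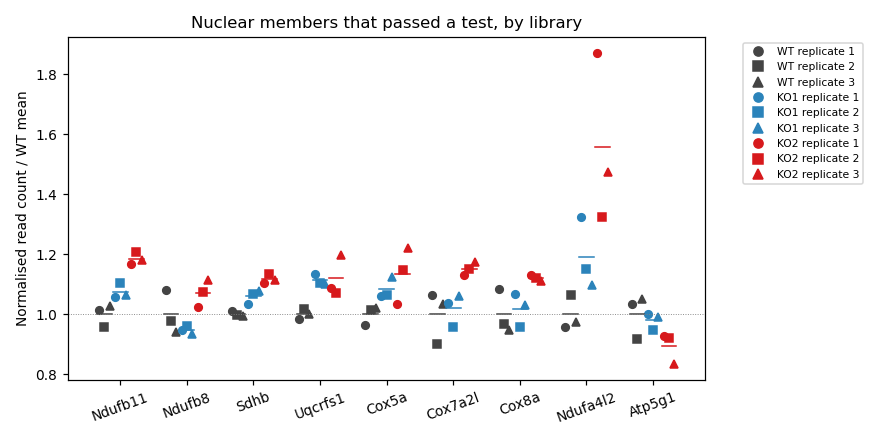
Normalised read count of the 9 nuclear members called in KO2 against WT or against KO1, in each library, divided by the gene's WT mean (vertical axis, 1 is the WT mean); marker shape gives the replicate and short bars the group means. Ndufa4l2 rises from a WT mean of 20.1 to 31.3 in KO2, and the means of the other members lie closer to WT.

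In KO2 some markers of other cell types moved as well, and their part in these changes was not tested. Of 11 fibroblast (feeder cell) markers 7 were in the table and summed to 120.1 to 124 in WT, 124 to 127 in KO1 and 159 to 163 in KO2, and the 3 that were tested, Col5a1 (74.3 to 82.1 in WT and 94.5 to 100.02 in KO2), Fbln2 and Pdgfrb, were called higher. The defining collagen genes Col1a1 and Col1a2, too low for the test, lay between 0.670 and 4.94 in all 9 libraries. Col1a2 went the other way, at 3.52 to 4.30 in WT and 2.95 to 3.49 in KO2. Col1a1 lay at 1.41 to 2.33 in WT and 1.13 to 1.89 in KO2. Thy1, also not tested, lay at 6.94 to 7.51 in WT and 9.22 to 12.2 in KO2. Of 7 primitive endoderm markers 3 were in the table, summing to 18.9 to 21.6 in WT, 17.3 to 21.2 in KO1 and 24.0 to 25.2 in KO2. Of these, Gata4 was called higher (10.9 to 13.7 in WT and 19.9 to 20.5 in KO2). Dab2, too low for the test, lay at 5.07 to 6.51 in WT and 2.72 to 4.11 in KO2. Pdgfra, on the fibroblast list as well and also too low, lay at 1.86 to 2.07 in WT and 0.822 to 1.89 in KO2.

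In KO1 limma called 0 of the 88 members, beside 1.06% of all rows, as did edgeR and DESeq2. At an unadjusted p under 0.05 there were 7, beside 12.7% of all rows, and all 7 were nuclear and higher: Uqcrc2, Ndufa4, Ndufa9, Uqcrfs1, Ndufs4, Cox5a and Ndufa4l2. KO1 and KO2 share the WT libraries, so their changes are not independent of each other. In the mean of both lines 7 members were called, beside 9.09% of all rows. mt-Cytb (−0.19), mt-Nd1 (−0.23) and mt-Nd6 (−0.30) were lower, beside 2.93% of all rows, and 4 were higher, beside 6.16%: Ndufa4l2 (0.42), Ndufb11 (0.17), Cox5a (0.15) and Uqcrfs1 (0.16). With the 6 knockout libraries pooled as 1 group none of these was called.

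The lines were also set against each other directly. Between KO2 and KO1 5 of the 88 members were called, beside 9.92% of all rows, 4 of them higher (4.71% of all rows) and 1 lower (5.22%). mt-Cytb was lower in KO2 than in KO1 by −0.23 ± 0.05 (limma adjusted p = 0.0022), the one mitochondrially encoded gene to pass. Ndufa4l2 was higher by 0.36 ± 0.12 (adjusted p = 0.033 in limma), Cox7a2l by 0.18 ± 0.06 (0.043) and Cox8a by 0.14 ± 0.05 (0.050). Ndufb8, a membrane arm subunit of complex I named after its values had been seen, measured 254, 229.7 and 220.5 in WT, 222, 226 and 219 in KO1, and 240.5, 252 and 262 in KO2 (0.18 ± 0.05, limma adjusted p = 0.018), and was called against WT in neither line. edgeR called 9 members in this comparison. Without KO2 replicate 3 limma called 10, and without KO1 replicate 1, 2 or 3 it called 3, 1 and 3, without KO2 replicate 1 or 2 it called 2 and 3.

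The promoters of the nuclear members were searched for the motifs of factors known to drive respiratory genes. RefSeq promoters (GRCm38.p6, 250 bases before to 50 after the start) were matched by symbol for 67 nuclear members. GCGCANGCG, the core of the NRF1 motif (N is any base; all motifs were read on both strands), occurred in 20 of the 67 (29.9%) and in 7.03% of the 27025 genes with a promoter. CCGGAAG, the core bound by ETS factors such as GABP, occurred in 17 of 67 (25.4%) and in 9.93% of all, and AAGATGGC of YY1 in 10 of 67 (14.9%) and in 3.19%. NRF1 or ETS matches were held by 31 of the 67, and matches of different motifs may overlap. The 27025 genes were not limited to those expressed in these cells or matched for base composition. The shares are therefore no test of a trait of respiratory genes.

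Of the 8 nuclear members called in KO2, 7 had a promoter in the table; 0 of them held the NRF1 motif and 2 the ETS motif, Sdhb and Cox8a. A match is a description of the letters and not a bound site. Those promoters are shown with the ETS motif in capitals (CCGGAAG or its reverse complement CTTCCGG), beside that of Uqcrc1, which had the highest count among the members with the NRF1 motif, with its NRF1 matches in capitals. Their positions are chr4:140961021-140961320 for Sdhb (plus strand), chr19:7217567-7217866 for Cox8a (minus strand) and chr9:108936398-108936697 for Uqcrc1 (plus strand).
Sdhb: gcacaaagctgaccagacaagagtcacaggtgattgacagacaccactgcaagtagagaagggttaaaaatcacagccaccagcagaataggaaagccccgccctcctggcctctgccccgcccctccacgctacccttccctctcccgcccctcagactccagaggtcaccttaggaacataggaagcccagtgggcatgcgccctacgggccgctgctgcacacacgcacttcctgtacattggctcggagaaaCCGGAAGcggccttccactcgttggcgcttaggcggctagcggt
Cox8a: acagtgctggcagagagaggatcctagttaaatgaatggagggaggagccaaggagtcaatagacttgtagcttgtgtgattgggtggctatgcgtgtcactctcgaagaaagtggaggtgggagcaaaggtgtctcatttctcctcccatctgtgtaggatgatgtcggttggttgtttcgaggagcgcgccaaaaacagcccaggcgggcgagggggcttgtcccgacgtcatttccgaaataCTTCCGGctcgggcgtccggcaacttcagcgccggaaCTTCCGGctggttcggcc
Uqcrc1: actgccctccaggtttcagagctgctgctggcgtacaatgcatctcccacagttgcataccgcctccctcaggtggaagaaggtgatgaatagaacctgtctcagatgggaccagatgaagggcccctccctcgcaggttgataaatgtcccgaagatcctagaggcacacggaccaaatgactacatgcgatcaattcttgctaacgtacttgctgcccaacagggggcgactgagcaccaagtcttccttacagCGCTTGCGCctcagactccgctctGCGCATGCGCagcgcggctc

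Genes that build, feed or express the chain were counted from 9 further lists. The lists were written from general knowledge but chosen with earlier results of these data known, so their counts are not independent of these data. Of 57 assembly factors, 51 were tested, and in KO2 4 rose and 2 fell, beside 11.0% and 7.51% of all rows. Leaving out WT replicate 1, WT replicate 3, KO2 replicate 2 or KO2 replicate 3 left 2 that rose, and leaving out WT replicate 2 or WT replicate 3 left 0 that fell. Uqcc2, which receives newly made cytochrome b for complex III, measured 56.5, 53.8 and 52.8 in WT, 61.1, 58.9 and 64.6 in KO1, and 68.2, 75.4 and 69.2 in KO2 (0.38 ± 0.07, limma adjusted p = 2.2e-04). Cox17, the copper chaperone of complex IV, measured 117, 109 and 110.4 in WT, 114, 115 and 117 in KO1, and 124, 148 and 143 in KO2 (0.30 ± 0.06, limma adjusted p = 4.2e-04). For both genes every KO2 library lay above every other library, and both were called in all 21 alternative settings.

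The other assembly factors called were nearer the threshold. Ndufaf6 (0.32) and Nubpl (0.31), both needed for complex I, rose, with the calls lost in 7 and 4 of 20 alternative settings. Sdhaf2 (−0.24), which helps attach the flavin to Sdha, and Coa7 (−0.20), a complex IV factor, fell, calls lost in 3 and 10 of 21 alternative settings. Of 17 electron carrier and coenzyme Q genes, 1 fell in KO2, beside 7.51% of all rows: Pdss1, which makes the side chain of coenzyme Q, measured 38.5, 39.1 and 38.7 in WT, 35.2, 34.97 and 37.2 in KO1, and 29.4, 25.8 and 33.7 in KO2 (−0.38 ± 0.10, limma adjusted p = 0.0032).

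Lists that bear on expression of the mitochondrial genome were counted next. Of 16 genes of its transcription and replication, 1 rose in KO2, beside 11.0% of all rows: the DNA polymerase gene Polg (0.15 ± 0.05, limma adjusted p = 0.012), lost without WT replicate 2 or KO2 replicate 2. Of 22 genes of mitochondrial RNA processing and stability, 0 rose and 6 fell, beside 7.51% of all rows called lower. The count was 3 when WT replicate 2, WT replicate 3, KO2 replicate 1 or KO2 replicate 2 was left out, and 7 without KO2 replicate 3. The lowest adjusted p was that of Tbrg4, a FASTK family regulator of mitochondrial messenger RNA stability, which measured 241, 232 and 261 in WT, 218, 225 and 221 in KO1, and 198, 219 and 197 in KO2 (−0.26 ± 0.05, limma adjusted p = 2.7e-04) and was called in all 21 alternative settings. Its WT libraries lay above those of both knockout lines.

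The others of that list fell by less or were less stable. Elac2, which cuts the 3′ ends of transfer RNAs, changed by −0.21 (limma adjusted p = 0.0082), Ptcd3, a protein of the mitochondrial ribosome, by −0.17 (0.0098) and Fastkd3, another FASTK family gene, by −0.27 (0.013). The helicase gene Supv3l1 (−0.19) and the RNA granule gene Grsf1 (−0.16), named after their values had been seen, each lost their calls in 4 of 21 alternative settings. Ptcd3 (−0.18) and Grsf1 (−0.18) were also lower in KO2 than in KO1, calls lost in 2 and 6 of 21 alternative settings. Of 11 nuclear regulators 1 rose, beside 11.0% of all rows: Tead4 (0.25 ± 0.07, limma adjusted p = 0.0058), a TEAD family transcription factor. In KO1 none of the 9 lists held a call.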

How the data were processed

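The 9 libraries are poly-A selected RNA of mouse ES cells, prepared with a stranded kit and read as paired ends of 50 bases, per the labels' protocols. The submitters' processing notes name HISAT2, DESeq2 and GRCm38; no version, annotation, strand setting or gene filter is stated in them or in the labels. Deposited was a signal per gene, that is read counts that the authors had scaled between libraries, in 15526 rows. The plan had allowed for raw counts; since scaled values were found, they were tested on a log2 scale. Dividing each library by its smallest step recovered whole reads.

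The main test was limma 3.58.1 (R 4.3.3) with trend and robust moderation on log2(value + 1), over the 10238 rows with a mean value of at least 10 across the 9 libraries, with 1 mean per group and Benjamini-Hochberg adjustment over all rows. edgeR 4.0.16 and DESeq2 1.42.0 on the recovered reads, other pseudocounts, filters and scalings, a replicate block, pooled knockout lines and leaving out each library were alternatives. Group values are means ± SD and changes are ± SE. Sequences and positions come from GENCODE M21 and RefSeq on GRCm38. A transcript window counted as shared when the same 50 bases, on either strand, occurred in a transcript of another gene; 92 of 94 members were matched by symbol. No library duplicated another of its group, since counts within a group differed by more than sampling noise (chi-square per gene of 2.48 to 5.17). The test scripts were tested on simulated data.

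Named genes were every mitochondrially encoded member, per complex up to 3 nuclear members called in each direction in KO2 and the one with the highest mean, members called in KO1 or between the lines with a change of at least 0.2, isoform genes listed by name, and up to 4 genes per further list. One gene chosen by this rule is not reported here. The members and lists were chosen with earlier results of these data known.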

Additional observations from a re-analysis of the deposited data

Results flagged for a closer look

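The direct comparison of KO2 with KO1 set apart 5 members whose change against WT differed between the lines by limma's test (adjusted p under 0.05). mt-Cytb differed by −0.2268 on the log2 scale (−0.31 in KO2 and −0.08 in KO1), with all KO2 libraries below all KO1 libraries. Ndufa4l2 differed by 0.364 (0.60 and 0.24), Cox7a2l by 0.177 (0.21 and 0.03) and Cox8a by 0.1386 (0.17 and 0.03). Ndufb8 differed by 0.1764, with 0.10 in KO2 and −0.08 in KO1, neither of them called. The share of all rows called in this comparison was 9.92%. mt-Cytb lost the call only under DESeq2 (adjusted p = 0.051), out of 21 alternatives; Ndufa4l2 lost it in 3 of 20, Ndufb8 in 5, Cox7a2l in 6 and Cox8a in 10 of 21.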

How the results depend on the processing

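No called change of a named member reversed its direction in any of 20 or 21 alternatives. In KO2 mt-Cytb, Ndufb11 and Ndufa4l2 kept their calls in every alternative that tested them, and Uqcrfs1 lost its call in 17 of 21. The estimates of all 8 mitochondrially encoded genes were negative in KO2, and 7 of 8 without WT replicate 2, KO2 replicate 1 or KO2 replicate 2. The KO2 member calls, 7 higher and 4 lower, were 6 higher and 7 lower by edgeR; over all rows 1123 were higher and 769 lower, and 897 and 1025 under median-ratio scaling, whose median change moved from 0.02 to −0.01. The KO1 member count of 0 became 1 with only the groups compared in the fit. Pooling the knockout lines left 216 calls and 0 members in the mean contrast. KO2 against KO1 gave 5 members, 3 with no filter, 9 by edgeR with either scaling, and 3 by DESeq2. The cause of these shifts was not tested.

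Leaving out 1 library at a time gave 50 to 163 calls in KO1 (0 to 1 members), 1322 to 1803 in KO2 (6 to 16 members), 504 to 1060 in the mean (3 to 9) and 520 to 1207 between the lines (1 to 10). The KO2 member count was 6 without WT replicate 3 and 16 without KO2 replicate 3, and the mean count was 3 without WT replicate 2. The mitochondrially encoded share of reads ranged over 0.983% to 1.04% in WT, 0.957% to 1.010% in KO1 and 0.854% to 0.945% in KO2.

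The groups share replicate numbers, but libraries of 1 number did not deviate together (correlations of −0.13 to 0.027 over 9 pairs). Over the 18 pairs of different number the correlations were −0.092 to 0.166. The 1 pair over 0.1 was WT replicate 2 with KO2 replicate 3, the libraries that stood apart in the mitochondrially encoded genes. With the replicate block there were 1719 calls and 10 members in KO2, 89 and 0 in KO1, 819 and 6 in the mean, and 867 and 4 between the lines.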
